A study of Takifugu fasciatus with 6 samples.

Results

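Genes of the proteasome, its regulatory particle, its activators and its assembly factors were followed in the liver of juvenile Takifugu fasciatus, the obscure pufferfish, during cold exposure. A gene was taken as a member when the Swiss-Prot protein it matched best in the deposited gene table carried "proteasome" or "26S protease regulatory subunit" in its name, and 51 of 20990 genes did. By protein name, 7 members were alpha subunits of the core, 10 were beta subunits of types 1 to 7, 4 were beta subunits of immune or thymic types, 7 were regulatory ATPases, 11 were regulatory non-ATPase subunits, 6 were activators and 6 were assembly factors. In the experimental group (EG: Ga, Gb and Gc) the water was cooled from 26 °C to 19 °C, kept there for 12 h, cooled further to 12 °C and kept at 12 °C for 24 h. In the control group (CG: G1, G2 and G3) it stayed at 26 °C. Liver tissue of 6 fish went into a library, the fish of both groups had first spent 2 weeks at 26 °C, and their last feeding was 24 h before the treatment began. The fish were kept in 6 aquaria, 3 for each group, and the spread given below is that between pools, which differences between aquaria may be part of.

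The proteasome is the protease that breaks down proteins tagged with ubiquitin in the cytosol and nucleus. Its barrel-shaped core is a stack of rings: alpha subunits form the outer rings and gate the entrance, and beta subunits form the inner rings, where those encoded by PSMB5, PSMB6 and PSMB7 carry the cutting sites. In cells exposed to interferon, these are replaced in new particles by the immune subunits PSMB8, PSMB9 and PSMB10, which favour peptides for antigen presentation. The regulatory particle caps the core: a ring of ATPases (PSMC genes) unfolds substrates, and the non-ATPase subunits (PSMD genes) bind ubiquitin, remove it and hold the particle together. Other caps, the activators, open the core without ATP. Particles are built with the help of dedicated chaperones.

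The read counts summed to between 32391863 and 45548824 in the EG libraries and between 31150888 and 39203099 in the CG libraries. Levels are given as CPM, counts divided by a library total that was scaled with the trimmed mean of M-values (TMM), in each library. EG was compared with CG over all 14357 genes that passed edgeR's filter on low counts, with the quasi-likelihood F test of edgeR, p-values being adjusted by Benjamini-Hochberg over those genes, and a gene is said to rise or fall at an adjusted p under 0.05. Of all genes tested, 45.4% passed in either direction, 23.7% rising and 21.7% falling, and the median log2 fold change was -0.03. With library totals in place of TMM that median moved to -0.37 and the split to 14.1% rising and 31.4% falling. The hepatocyte markers were the most abundant of the marker lists in every library, with summed levels of 238100 to 289200 CPM in EG and 202800 to 227700 CPM in CG. Genes are named after their Swiss-Prot match, which mostly belongs to another species, and roles are those known from mammals and yeast.

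Most proteasome genes were more abundant in the cold. Of the 51 members, 48 were tested, with 35 rising, 1 falling and 12 short of the threshold, and the median log2 fold change over the 48 was 1.03. The corresponding shares are 72.9% rising and 2.08% falling, beside 23.7% and 21.7% of all genes tested. With library totals 27 members rose and 2 fell. A rise of more than 2-fold was called for 25 members, beside 13.7% of all genes. All EG libraries lay above all CG libraries for 36 of the 48 members and below them for 3, where this held for 29.0% and 28.8% of all genes tested. Together the 51 members took 2284, 2101 and 1985 CPM in Ga, Gb and Gc, against 1022, 1083 and 1049 CPM in G1, G2 and G3. The EG sums are about 2.02 times the CG sums, and the libraries of the groups do not overlap. The plot of levels by library shows this separation for 36 of the 48 genes, while 9 overlap and 3 lie the other way round.

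**Figure D1:**
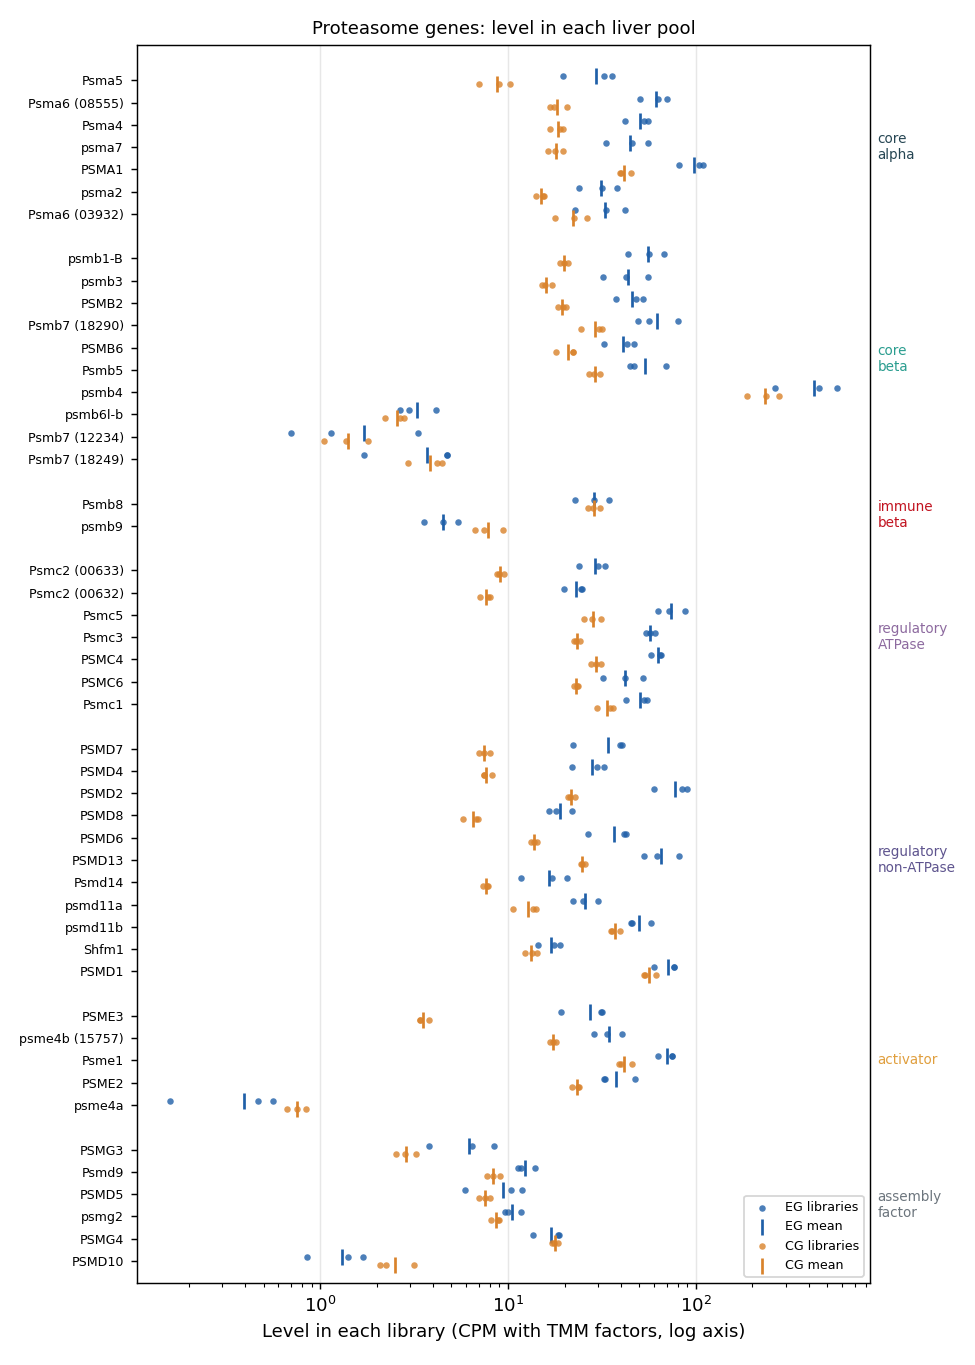
Level of each of the 48 tested proteasome genes in each liver pool (CPM with TMM factors, log axis), with 3 EG libraries above 3 CG libraries in each row and a bar at the group mean. Genes are grouped by class and ordered by fold change, and genes of 1 name carry the last digits of their identifier. EG lies above CG without overlap in 36 rows, and psmb9, psme4a and PSMD10 lie the other way round.

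The alpha subunits rose nearly throughout. Of 7 alpha genes, 6 rose, all of them more than 2-fold, and the median log2 fold change of the 7 was 1.32. The shares over all genes tested were 23.7% rising and 13.7% rising more than 2-fold. PSMA1 was the most abundant of them by CPM per kilobase of gene model, with 139 in EG and 58.8 in CG. Its level was 109, 104 and 80.9 CPM in Ga, Gb and Gc, against 39.2, 39.8 and 45.3 CPM in G1, G2 and G3, so that the lowest EG pool was well above the highest CG pool (log2 fold change 1.24, standard error 0.163, edgeR adjusted p = 0.000749). Psma5 had 35.9, 32.3 and 19.5 CPM in Ga, Gb and Gc, against 8.95, 7.00 and 10.3 CPM in G1, G2 and G3. Here Gc was clearly the lowest of the EG pools, and the log2 fold change was 1.74 (standard error 0.257). Psma4, psma7 and psma2 rose by 1.45, 1.32 and 1.06 on the log2 scale. The 7 genes include copies of Psma6, and no member was matched to PSMA3.

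Psma6, an alpha subunit, was the best match of a gene on scaffold105 and of a gene on scaffold45, and these differed in size of change. The gene on scaffold105 (fugu_GLEAN_10008555, bases 301703 to 304066, plus strand) had 62.6, 70.4 and 50.5 CPM in EG, against 17.6, 16.8 and 20.5 CPM in CG. It rose by 1.74 on the log2 scale (standard error 0.172, edgeR adjusted p = 0.000213). The gene on scaffold45 (fugu_GLEAN_10003932, bases 438101 to 440706, plus strand) had 41.8, 22.8 and 33.4 CPM in EG, against 17.7, 22.4 and 26.2 CPM in CG. Those groups overlap, since Gb was below G3, and the log2 fold change of 0.56 did not pass the test (edgeR adjusted p = 0.092, and 0.0213 without Gb). Reads shared between copies of 1 name may have been split by the counting.

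Among the 10 beta genes of types 1 to 7, 7 rose and 3 did not pass the test, beside 23.7% of all genes rising. The median log2 fold change of the class was 0.93. The 3 that did not pass were psmb6l-b, fugu_GLEAN_10012234 and fugu_GLEAN_10018249. These 3, like all members, were placed in their class by protein name alone. Of the structural beta subunits, psmb1-B rose by 1.49, psmb3 by 1.45, PSMB2 by 1.24 and psmb4 by 0.86 on the log2 scale. psmb1-B had 67.4, 56.6 and 43.6 CPM in Ga, Gb and Gc, against 18.8, 19.9 and 21.0 CPM in G1, G2 and G3, and the lowest EG pool was above every CG pool. The genes of the cutting sites rose as well. PSMB6 had 43.2, 46.8 and 32.5 CPM in EG, against 18.0, 22.3 and 22.2 CPM in CG, with a log2 fold change of 0.97 (standard error 0.179). The main Psmb7 gene (fugu_GLEAN_10018290) had 56.4, 80.3 and 49.1 CPM in EG, against 24.6, 30.7 and 31.7 CPM in CG, with a log2 fold change of 1.09 (standard error 0.211). Psmb5 had 44.8, 69.2 and 46.9 CPM in EG, against 27.1, 30.7 and 28.9 CPM in CG, and rose by 0.89 (edgeR adjusted p = 0.00667, and 0.0708 with library totals). In these 3 genes Gb was the highest pool and no EG pool fell to the CG level.

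The gene matched to psmb4, a structural beta subunit, stood apart from the other core genes in level and in spread. It had 452, 263 and 563 CPM in Ga, Gb and Gc, against 237, 277 and 188 CPM in G1, G2 and G3. Gb lay below G2, so the groups overlap, although the log2 fold change of 0.86 passed the test (standard error 0.283, edgeR adjusted p = 0.037). The call was lost with library totals, with upper quartile factors and when any library except Gb was left out (edgeR adjusted p = 0.125, 0.0864 and 0.0546 to 0.119). Its gene model on scaffold60 is 3018 bases long, where the median of the beta class is 774 bases, so reads of another gene may be part of its counts. Within each group its pools followed the order of the summed exocrine pancreas markers, which were 13180, 498 and 17520 CPM in Ga, Gb and Gc, against 14280, 19930 and 4673 CPM in G1, G2 and G3, and their part in this result was not tested.

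Levels of core subunits were closer to one another in EG than in CG, a difference that rests in large part on Psma5. The core holds equal numbers of each subunit, and 11 subunits had a gene model no longer than 1.5 times the median of their class. Short gene models were not left out. These were chosen after their lengths were seen, with 1 copy taken where several genes matched 1 name. For Psma6 this was the gene on scaffold105. Per kilobase it was above the copy on scaffold45 in EG (82.6 against 42.9 CPM) but below it in CG (24.7 against 29.0 CPM). Per kilobase of gene model, their group means ran from 54.7 to 139 CPM in EG, a 2.54-fold range, and from 16.4 to 58.8 CPM in CG, a 3.59-fold range. Without PSMA1, which was the highest in both groups, the 10 others ran from 54.7 to 82.6 CPM per kilobase in EG and from 16.4 to 34.8 in CG. The SD of these 10 levels on the log2 scale was 0.182 in EG and 0.323 in CG. Psma5 had the lowest level in both groups, and its gene model is 534 bases long, where the median of the alpha class is 741 bases. Without Psma5 as well, the levels ran from 59.3 to 82.6 CPM per kilobase in EG and from 23.8 to 34.8 in CG. Much of the narrowing thus rests on this 1 gene, and the narrowing was not tested.

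Immune subunits did not follow the core. psmb9, which takes the place of PSMB6, was the only one of the 48 tested members that fell in edgeR with TMM factors. It had 4.53, 3.56 and 5.44 CPM in Ga, Gb and Gc, against 7.496, 6.65 and 9.44 CPM in G1, G2 and G3. Every EG pool was below every CG pool, with a log2 fold change of -0.80 (standard error 0.234, edgeR adjusted p = 0.0248). The call was lost without G1, G3, Ga or Gb (edgeR adjusted p = 0.0643, 0.0944, 0.054 and 0.0566). Psmb8, which takes the place of PSMB5, had 34.5, 22.7 and 28.5 CPM in EG, against 28.4, 26.5 and 30.7 CPM in CG. Its groups overlap fully, and its log2 fold change of 0.00 (standard error 0.176, edgeR adjusted p = 0.995) turned to -0.35 with library totals and to -0.19 with upper quartile factors. The gene model of Psmb8 is 5337 bases long, so its counts too may include reads of another gene. The 2 genes matched to PSMB11, the beta subunit of the thymus in mammals, had 0 to 5 counts per library and were not tested, and no member was matched to PSMB10.

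Leukocyte markers were lower in EG beside the fall of psmb9. Their summed level was 21.3 to 48.7 CPM in EG and 58.4 to 86.2 CPM in CG. Of 11 tested markers, 5 fell, beside 21.7% of all genes tested. Among these were CORO1A and lcp1, which shape the actin skeleton of blood cells. The call of lcp1 was near the threshold (edgeR adjusted p = 0.0462), and its groups overlap, with 16.6 CPM in Ga and 15.5 CPM in G2. The other 6 did not pass, with log2 fold changes from -1.22 for a gene matched to LCK to 0.01 for Zap70. The T cell marker CD3E and both genes matched to the macrophage marker MPEG1 were at or near 0 in all libraries. In pooled tissue, fewer cells of a type and less RNA per cell cannot be told apart, and the part of leukocytes in the level of psmb9 was not tested.

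Both immune genes lie in 1 cluster on scaffold102 of the authors' assembly, with no other gene of the table between the members there. From the lower coordinate, Psmb8 (bases 2664521 to 2698124, minus strand) is followed by a Psmb7 match (2698900 to 2710878, minus strand), psmb6l-b (2710977 to 2712871, plus strand) and psmb9 (2713456 to 2715045, plus strand). The next gene is matched to TAP2, a subunit of the transporter that brings peptides into the endoplasmic reticulum for class I presentation. The Psmb7 match of this cluster (fugu_GLEAN_10012234) and psmb6l-b are counted with the core by protein name alone, the rule used for all members. Whether either is a constitutive or an immune gene was not tested. The Psmb7 match had 3.31, 1.14 and 0.702 CPM in EG, against 1.05, 1.37 and 1.79 CPM in CG. For psmb6l-b the levels were 2.99, 2.67 and 4.12 CPM in EG, against 2.67, 2.21 and 2.80 CPM in CG. In both the groups overlap, and log2 fold changes of 0.30 and 0.35 missed the threshold (edgeR adjusted p = 0.706 and 0.326 from edgeR's quasi-likelihood test). The first turned to -0.60 without Ga and to -0.08 with library totals. TAP2 of the cluster was at 0.351 to 0.960 CPM in EG and 0.477 to 1.26 CPM in CG. A further Psmb7 match on scaffold31 (fugu_GLEAN_10018249) had 4.72, 1.72 and 4.71 CPM in EG, against 2.94, 4.19 and 4.45 CPM in CG, and its log2 fold change of -0.05 (edgeR adjusted p = 0.927) turned to 0.30 without Gb. None of the 4 genes of the cluster passed the test as higher in EG, where 23.7% of all genes tested did. A set of 4 genes is too small to be set against that share.

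The ratios of psmb9 to PSMB6 and of Psmb8 to Psmb5 were lower in every EG pool than in every CG pool. The ratio of FPKM (fragments scaled by gene length and library total) within a library does not depend on how the library is scaled. For psmb9 to PSMB6 it was 0.128, 0.0926 and 0.204 in Ga, Gb and Gc, against 0.508, 0.364 and 0.519 in G1, G2 and G3. The groups do not overlap, and the mean log2 ratio, with 0.1 added to each FPKM, differed by -1.76 between EG and CG (p = 0.1 from a two-sided exact permutation test, the smallest p that 3 against 3 pools allow). For Psmb8 to Psmb5 it was 0.121, 0.0517 and 0.0957 in EG, against 0.165, 0.136 and 0.168 in CG, again without overlap (difference of the log2 ratio -0.87, exact permutation p = 0.1). That difference was -0.52 without Gb and -1.13 without Ga, and for psmb9 to PSMB6 leaving out 1 library gave -2.06 to -1.49. PSMB6 and Psmb5, the denominators of these ratios, both rose. Ratios outside the fixed plan were formed for psmb6l-b to PSMB6 and for the Psmb7 match of scaffold102 to the main Psmb7 gene. In both the groups overlap, with differences of the log2 ratio of -0.63 and -1.0 (exact permutation p = 0.3 and 0.4). The size of the ratio of Psmb8 to Psmb5 depends on gene models of 5337 and 840 bases. In CPM, without scaling by length, the CG means were 28.5 for Psmb8 and 28.9 for Psmb5.

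**Figure D2:**
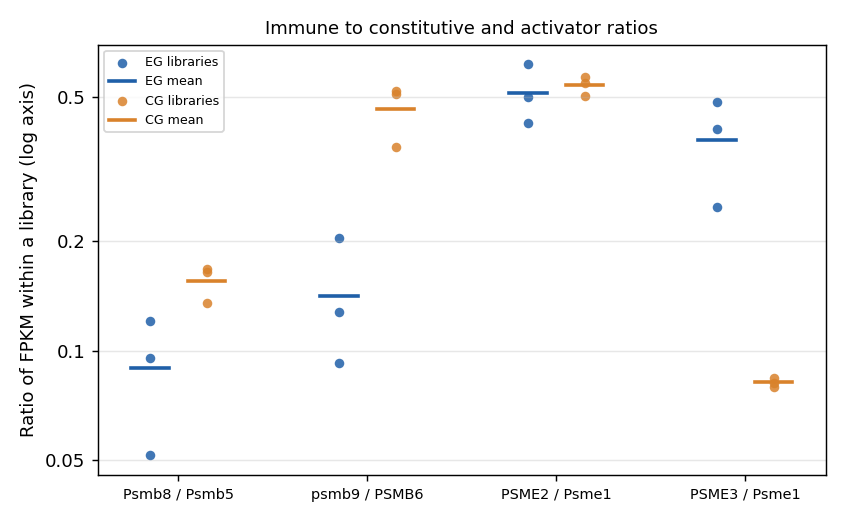
Ratio of FPKM between genes within each library (log axis), with 3 EG libraries to the left of 3 CG libraries and a line at the group mean. The ratios of Psmb8 to Psmb5 and of psmb9 to PSMB6 were lower in every EG pool, that of PSME2 to Psme1 overlapped, and that of PSME3 to Psme1 was 0.249 to 0.484 in EG and 0.0798 to 0.0844 in CG. FPKM is scaled by gene length, and the gene model of Psmb8 is 5337 bases long.

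All 7 genes of regulatory ATPases rose, with a median log2 fold change of 1.30 and no overlap between groups in any of them. Over all genes tested, 23.7% rose and 29.0% had all EG libraries above all CG libraries. Psmc2 was matched by a pair of neighbouring genes on the minus strand of scaffold353, 80 bases apart and 408 and 903 bases long, which may be parts of 1 gene. Each is counted as a member, so 1 gene may be counted more than once in the totals. The longer (fugu_GLEAN_10000633) had 30.1, 33.0 and 24.0 CPM in EG, against 9.48, 8.93 and 8.71 CPM in CG, and rose by 1.68 on the log2 scale (standard error 0.162, edgeR adjusted p = 0.000196). The shorter rose by 1.59. Both thus gave the largest changes of the class, with every EG pool far above the highest CG pool. Psmc3 changed with the least spread of the class: 60.6, 56.9 and 54.4 CPM in EG, against 22.3, 23.1 and 24.1 CPM in CG (log2 fold change 1.30, standard error 0.128).

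Psmc5, PSMC4 and PSMC6 rose by 1.39, 1.09 and 0.86 on the log2 scale, the last without passing the test with library totals (edgeR adjusted p = 0.0731). The gene model of Psmc5 is 2685 bases long, against a class median of 1284 bases. The smallest change of the class was that of Psmc1, with 55.0, 52.9 and 42.5 CPM in EG, against 35.0, 29.9 and 36.4 CPM in CG. Its log2 fold change of 0.57 passed the test (standard error 0.157, edgeR adjusted p = 0.0189) but not with library totals, with upper quartile factors or without G1 or G2 (edgeR adjusted p = 0.317, 0.0723, 0.057 and 0.0743). Psmc3, on the minus strand of scaffold305, lies 744 bases beyond psmb1-B, on the plus strand, so the genes point toward each other. Both rose, as did 72.9% of tested members.

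Among the 11 regulatory non-ATPase genes, 9 rose and 2 did not pass the test, beside 23.7% of all genes rising. The median log2 fold change of the class was 1.40, with a range from 0.34 to 2.19. The largest change was in PSMD7, the partner that holds the deubiquitinating subunit in place. It had 40.6, 39.6 and 22.3 CPM in Ga, Gb and Gc, against 7.97, 7.46 and 6.98 CPM in G1, G2 and G3, so that even Gc, the lowest EG pool, was far above CG (log2 fold change 2.19, standard error 0.242, edgeR adjusted p = 0.000346). Psmd14, the deubiquitinating subunit itself, had 20.6, 17.2 and 11.7 CPM in EG, against 7.40, 7.72 and 7.84 CPM in CG, and rose by 1.11 (standard error 0.218).

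PSMD4, a ubiquitin receptor, had 32.4, 29.7 and 21.8 CPM in EG, against 7.42, 7.44 and 8.18 CPM in CG, and rose by 1.86 on the log2 scale (standard error 0.182). PSMD2, a scaffold that docks shuttle proteins, had 84.4, 89.1 and 59.7 CPM in EG, against 20.9, 21.4 and 22.7 CPM in CG, and rose by 1.84 (standard error 0.181). Of the lid subunits, PSMD8 rose by 1.54, PSMD6 by 1.42 and PSMD13 by 1.40. No member was matched to PSMD3 or PSMD12.

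Other non-ATPase genes changed little. PSMD1, the second large scaffold of the particle, had 76.4, 76.8 and 59.6 CPM in EG, against 53.5, 52.8 and 61.6 CPM in CG, and Gc overlapped with CG. Its log2 fold change of 0.34 did not pass the test (edgeR adjusted p = 0.109, and 0.0383 without Gc). Shfm1, the small acidic subunit of the lid, had 17.7, 18.9 and 14.4 CPM in EG, against 13.4, 12.3 and 14.2 CPM in CG, without overlap but with a log2 fold change of 0.35 that did not pass (edgeR adjusted p = 0.104, and 0.0406 without Gc).

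psmd11, a non-ATPase subunit, was matched by the gene psmd11a on scaffold187 and by psmd11b on scaffold339. psmd11a had 25.0, 30.1 and 22.1 CPM in EG, against 13.6, 10.7 and 14.0 CPM in CG (fold change 2.02, standard error of the log2 value 0.178). psmd11b had 45.3, 57.6 and 45.9 CPM in EG, against 35.8, 35.5 and 39.4 CPM in CG (log2 fold change 0.43, standard error 0.148, edgeR adjusted p = 0.0462). That of psmd11b was lost with library totals, upper quartile factors and no filter on low counts (edgeR adjusted p = 0.696, 0.232 and 0.0541), and without G1, G2, G3 or Gb (0.0771 to 0.139). The difference between copies was not tested.

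**Figure D3:**
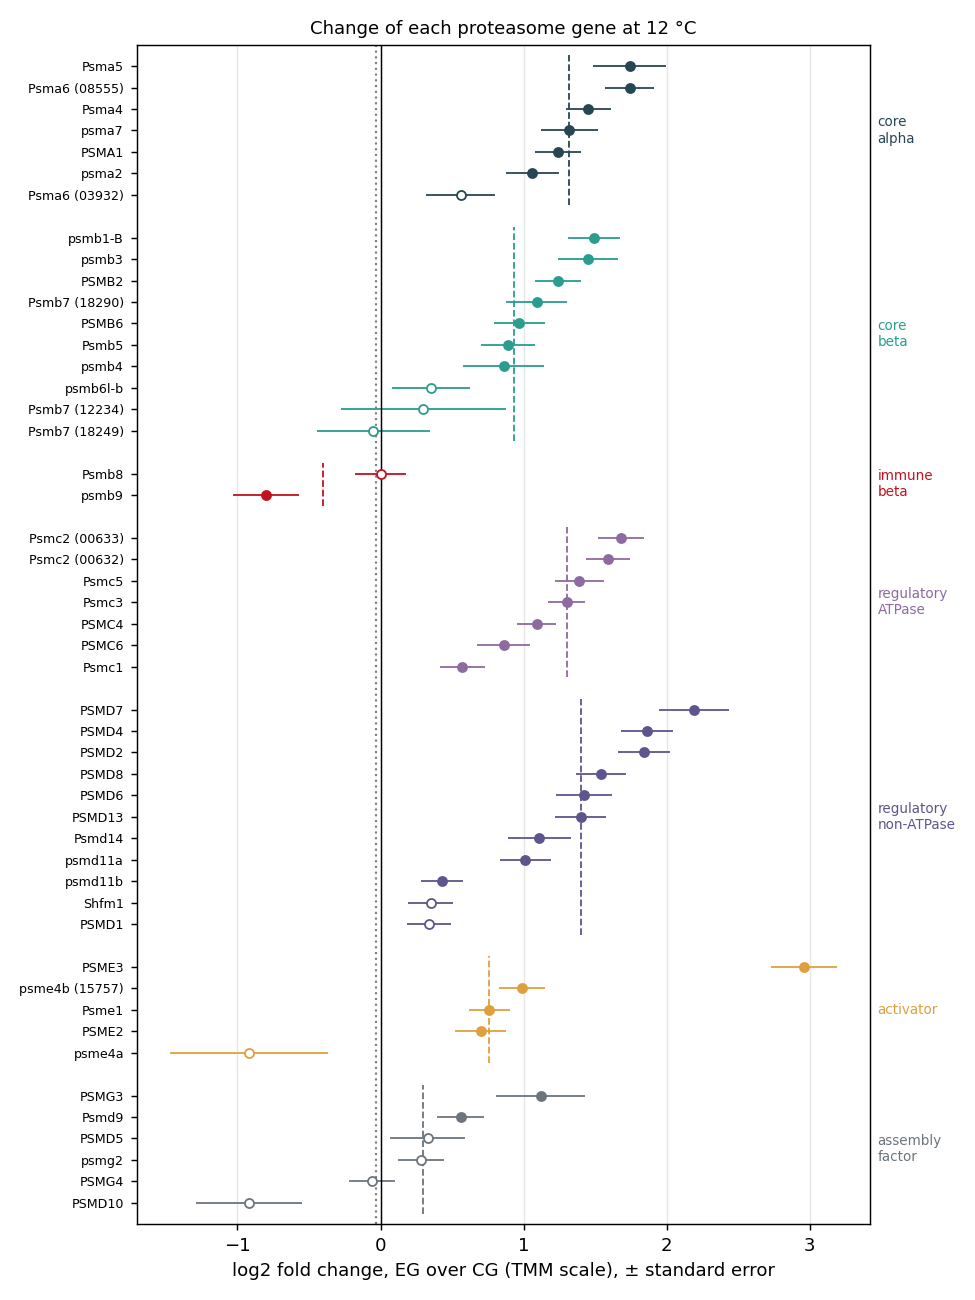
Log2 fold change of EG over CG for the 48 tested proteasome genes on the TMM scale, with its standard error; filled circles passed the test at an adjusted p under 0.05. Dashed lines mark the median of each class, 1.32 and 0.93 for core alpha and beta, 1.30 and 1.40 for the regulatory classes, and the dotted line the median of all genes tested (-0.03); Psmb8 lies near 0 here and at -0.35 with library totals.

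Among the activators, PSME3 had the largest change. PSME3, which forms a nuclear cap of the core by itself, was found on scaffold362 (fugu_GLEAN_10001496, bases 247620 to 249379, plus strand). It had 31.6, 31.4 and 19.2 CPM in Ga, Gb and Gc, against 3.39, 3.79 and 3.39 CPM in G1, G2 and G3. The lowest EG pool was far above every CG pool, and the fold change of 7.76 was the largest of all members (log2 fold change 2.96, standard error 0.229, edgeR adjusted p = 0.000106).

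Psme1 and PSME2, which join in 1 cap that interferon induces in mammals, rose less and to a similar extent. Psme1 had 74.8, 62.8 and 74.3 CPM in EG, against 38.8, 45.9 and 40.0 CPM in CG (log2 fold change 0.76, standard error 0.145). PSME2 had 47.7, 32.6 and 32.7 CPM in EG, against 21.9, 23.9 and 23.6 CPM in CG (log2 fold change 0.70, standard error 0.18, edgeR adjusted p = 0.0143, but 0.119 with library totals and 0.0608 without G1). The ratio of PSME2 to Psme1 was 0.614, 0.4996 and 0.424 in EG, against 0.544, 0.502 and 0.568 in CG, and these overlap. In contrast, the ratio of PSME3 to Psme1 was 0.408, 0.484 and 0.249 in EG, against 0.0844, 0.0798 and 0.0819 in CG, without overlap (difference of the log2 ratio 2.14). Both ratios were added after the changes of these genes were seen and are a description.

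The large nuclear activator PSME4 was matched by 3 genes. The gene psme4b on scaffold176 (fugu_GLEAN_10015757, 5301 bases long) had 33.8, 40.6 and 28.6 CPM in EG, against 17.4, 16.7 and 18.0 CPM in CG, and rose by 0.99 on the log2 scale (standard error 0.161). psme4a on scaffold231 was barely present, with 0.560, 0.159 and 0.468 CPM in EG, against 0.668, 0.837 and 0.756 CPM in CG. Every EG pool was below every CG pool, but the log2 fold change of -0.92 missed the threshold (edgeR adjusted p = 0.208). The third, a short match 1750 bases further on the same strand, had 1 count in G2 and 0 in the other libraries.

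Of 6 assembly factors, 2 rose and 4 did not pass the test, beside 23.7% of all genes rising, with a median log2 fold change of 0.30 and a range from -0.92 to 1.12, and none of the 6 rose with library totals. PSMG3, which helps to close the alpha ring, had 8.45, 6.45 and 3.80 CPM in EG, against 3.25, 2.53 and 2.83 CPM in CG (log2 fold change 1.12, standard error 0.31, edgeR adjusted p = 0.0199). That call was lost with library totals and without G2, G3 or Ga (edgeR adjusted p = 0.0726, 0.0673, 0.0603 and 0.0593). Its partner PSMG4 had 18.5, 13.7 and 18.7 CPM in EG, against 17.1, 18.4 and 17.5 CPM in CG, and overlapped. The log2 fold change of PSMG4 was -0.06 (edgeR adjusted p = 0.783) and turned to 0.08 without Gb.

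psmg2, a chaperone of the first steps of the alpha ring, had a log2 fold change of 0.28 (edgeR adjusted p = 0.189), which turned to -0.06 with library totals. Of the chaperones that build the base of the regulatory particle, Psmd9 rose by 0.56 on the log2 scale (standard error 0.163, edgeR adjusted p = 0.0241), a call lost with library totals and upper quartile factors (edgeR adjusted p = 0.351 and 0.0966) and without G1, G2 or Ga (0.0619 to 0.0941). PSMD5 had 10.4, 11.9 and 5.94 CPM in EG, against 8.02, 7.00 and 7.54 CPM in CG, and Gc was the lowest of all 6 pools. Its log2 fold change of 0.33 did not pass (edgeR adjusted p = 0.337, and 0.0345 without Gc) and was -0.0011 with library totals. PSMD10 had 1.41, 1.68 and 0.848 CPM in EG, against 2.08, 2.23 and 3.17 CPM in CG, without overlap, and its log2 fold change of -0.92 did not pass in edgeR (edgeR adjusted p = 0.0732) but did with DESeq2, library totals and upper quartile factors (0.0476, 0.0299 and 0.0367).

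Genes that work with the proteasome were described from a list of ubiquitin genes and proteasome partners. In this list of 22 genes, 15 rose and 1 fell while 6 missed the threshold, with a median log2 fold change of 0.78. Of all genes tested, 23.7% rose and 21.7% fell. Akirin2, which brings the proteasome into the nucleus in mammalian cells, had 22.3, 22.9 and 18.5 CPM in EG, against 5.42, 5.56 and 4.96 CPM in CG, and changed most (log2 fold change 2.00, standard error 0.159). vcp, the ATPase that pulls tagged proteins out of complexes and membranes, had 152, 146 and 108 CPM in EG, against 45.5, 39.4 and 40.9 CPM in CG (log2 fold change 1.69, standard error 0.173). UBA1 and UBA6, which activate ubiquitin for transfer, rose by 1.29 (fugu_GLEAN_10014218) and 1.43 on the log2 scale. A second UBA1 gene (fugu_GLEAN_10009491) was at 0.71 with overlapping groups and missed the threshold (edgeR adjusted p = 0.0619).

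ZFAND5, a protein that stimulates the proteasome in mammals, was matched by 3 genes, of which the pair fugu_GLEAN_10001304 and fugu_GLEAN_10018313 rose by 1.77 and 1.69 and the third was at 0.30 (edgeR adjusted p = 0.0997). adrm1b, a ubiquitin receptor of the regulatory particle that the name rule leaves out, had 51.3, 62.7 and 63.2 CPM in EG, against 32.1, 31.4 and 34.1 CPM in CG, and rose by 0.86 (standard error 0.141). UCHL5, a deubiquitinating enzyme that docks on it, rose by 0.80.

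NFE2L1, the transcription factor that induces proteasome genes in mammalian cells with impaired proteasomes, was matched by a pair of genes. The first (fugu_GLEAN_10009414) had 29.8, 26.6 and 30.1 CPM in EG, against 19.3, 17.3 and 19.6 CPM in CG, and rose by 0.62 (standard error 0.134). The other was at -0.13 on that scale (edgeR adjusted p = 0.694). ddi2 and ngly1, which process the NFE2L1 protein, had log2 fold changes of 0.04 and 0.22 (edgeR adjusted p = 0.858 and 0.33). Nfe2l2, a related factor of the antioxidant response, fell: 3.55, 2.00 and 1.40 CPM in EG, against 5.06, 5.16 and 8.77 CPM in CG, without overlap (log2 fold change -1.44, standard error 0.387, edgeR adjusted p = 0.0173).

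**Figure D4:**
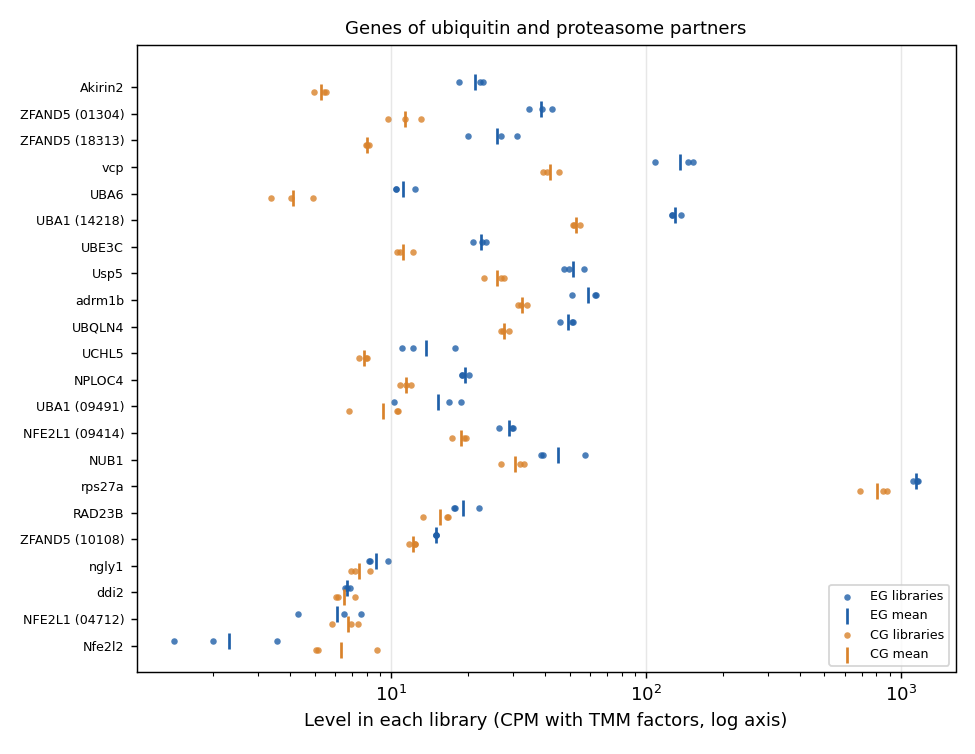
Level of the 22 genes of ubiquitin and proteasome partners in each liver pool (CPM with TMM factors, log axis), with 3 EG libraries above 3 CG libraries in each row and a bar at the group mean, ordered by fold change. Akirin2 at the top had 18.5 to 22.9 CPM in EG and 4.96 to 5.56 CPM in CG, and Nfe2l2 at the bottom had 1.40 to 3.55 CPM in EG and 5.06 to 8.77 CPM in CG.

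Genes of class I antigen processing, the pathway that uses peptides from the immune proteasome, mostly missed the threshold. Of 11 tested genes, 1 rose and 10 did not pass the test, beside 23.7% of all genes rising, with a median log2 fold change of 0.20. The gene that rose was CANX, a chaperone of the endoplasmic reticulum (log2 fold change 0.58, edgeR adjusted p = 0.0135). TAP1, the other subunit of the peptide transporter, had 52.7, 18.9 and 34.8 CPM in EG, against 32.6, 36.2 and 25.4 CPM in CG, with Ga highest and Gb lowest of all pools. Spread was wide in this list: TAPBPL, a helper of peptide loading, was at 1.08 on the log2 scale with a standard error of 0.623 and missed the threshold (edgeR adjusted p = 0.191). In the interferon gamma pathway, 2 of 13 genes rose and 2 fell, and the other 9 missed the threshold. These counts stand beside 23.7% rising and 21.7% falling of all genes tested.

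Erythrocyte markers summed to 1978 to 4125 CPM in EG and 3995 to 10360 CPM in CG, with 2 of 5 falling. Endothelial and stellate markers summed to 744 to 1401 CPM in EG and 1211 to 1607 CPM in CG, with 2 of 10 falling. Of all genes tested, 21.7% fell. Of 12 hepatocyte markers, 6 rose, beside 23.7% of all genes tested, and their sums given above do not overlap. Most of that sum came from tf and apoa1, with means of 151200 and 81130 CPM in EG, against 142800 and 52550 CPM in CG. apoa1 rose by 0.63 on the log2 scale, and tf was at 0.08 (edgeR adjusted p = 0.695). Several of the 12 genes were matched to APOB. The part of these cell types in the changes of proteasome genes was not tested.

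Within EG, the size of the change differed between pools. Gc had the lowest level of the EG pools for 30 of the 35 members that rose, while Ga was highest for 18 and Gb for 16. The order of pools was not counted over all genes tested. Whether it is particular to these members or shared by the whole library was not tested. Without Gc 37 members rose, and without G1, G2, G3, Ga or Gb the number was 30, 30, 32, 32 and 35. In CG the 35 genes had a less uneven order, G1 being lowest for 16, G2 for 11 and G3 for 8. The summed level of core genes per kilobase was 1154, 1065 and 920.5 CPM in Ga, Gb and Gc, against 437.3, 474.7 and 475.8 CPM in G1, G2 and G3. That of the regulatory particle was 664.7, 712.9 and 524.2 CPM in EG, against 294.0, 284.0 and 305.7 CPM in CG. The ratios of the group means were 2.26 for the core and 2.15 for the regulatory particle. In CPM, without scaling by length, they were 2.09 and 2.15, so the order of the classes depends on the unit. The core sums include psmb4, whose long gene model may hold reads of another gene.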

How the data were processed

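Liver mRNA was sequenced in 6 libraries, 3 from EG and 3 from CG. Reads were aligned with HISAT2 2.0.4 to the species' genome, which was unpublished, and RSEM 1.2.3 was used for quantification, per the labels and the study's methods. The build is not given in the sources used here. The deposited counts are unnormalized whole numbers per gene. In the FPKM values that the authors made, each count is divided by gene length and library total: 97.6% lie within 0.1% of that ratio, and 96.6% of lengths are multiples of 3, so they are close to a coding length. The authors' fold changes and p-values in the same table were not used.

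Genes took the gene name of their Swiss-Prot match, because the table's own name column is blank. Counts were filtered with filterByExpr, scaled by TMM (factors 0.82362 to 0.97274 in EG and 1.0976 to 1.1465 in CG) and tested with edgeR 4.0.16 (glmQLFit and glmQLFTest, R 4.3.3) between EG and CG. The common biological coefficient of variation was 29.6%. Scripts were tested on simulated data. Alternatives were other scalings, no filter, DESeq2 1.42.0, limma 3.58.1 on log2 FPKM with 1 or 0.1 added, a fold threshold of 2, and leaving out each library; leaving out 5 long gene models was added after seeing the data. All members found by the name rule were analysed, and those with extreme, missing or opposite changes, the immune genes and the activators are given by library. The members and the 8 gene lists were chosen with earlier results of these data known. The ratios of immune to constitutive subunits, taken from FPKM, were tested by exact permutation. That of PSMB10 to PSMB7 could not be formed because no member was matched to PSMB10. No sequences are shown, since no reference sequence was used here.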

Additional observations from a re-analysis of the deposited data

How the results depend on the processing

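The rise of proteasome genes kept its direction in every alternative run. Between 27 (library totals) and 37 members (without Gc) rose in edgeR at an adjusted p under 0.05, 35 in DESeq2, and 25 in edgeR with the 2-fold threshold. In total 27 of the 35 were called at an adjusted p under 0.05 in each setting that scaled, filtered or left out libraries. The median log2 fold change of the members was 0.70 with library totals, 0.84 with upper quartile factors, and 0.61 and 0.69 from limma on FPKM with 1 and 0.1 added, while the medians of all genes were -0.37, -0.22, -0.25 and -0.30. Leaving out 1 library gave 0.97 to 1.13, and leaving out the 5 long gene models gave 32 rising members and a median of 1.09. The number of falling members was 2 with library totals, upper quartile factors and DESeq2, 0 in edgeR with the 2-fold threshold, and 0 to 1 when 1 library was left out. In edgeR with TMM factors, psmb9 and PSMD10 were lower at an unadjusted p under 0.05. Of all genes, 2024 rose with library totals and 1961 with the 2-fold threshold, against 3398. Members near 0 turned: with library totals psmg2 was at -0.06, PSMD5 at -0.0011, the Psmb7 match fugu_GLEAN_10012234 at -0.08 and Psmb8 at -0.35, and Psmb8 was at -0.19 with upper quartile factors. Leaving out 1 library gave -0.15 to 0.15 for Psmb8, -0.60 to 0.68 for fugu_GLEAN_10012234, -0.25 to 0.30 for fugu_GLEAN_10018249 and -0.13 to 0.08 for PSMG4. The cause was not tested. No paired analysis was possible because the labels give no number shared by EG and CG. Low counts limit psme4a, PSMB11 and the Psmb7 match of scaffold102.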
